A study of Mus musculus with 11 samples.

Results

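The nuclear genes that encode the subunits of the mitochondrial respiratory chain and ATP synthase were examined across 4 mouse genotypes. Members were all rows of the count table whose symbol follows the naming of these subunits, namely the Nduf genes of families a, b, c, s and v, the 4 Sdh genes, the Uqcr genes, the Cox genes of families 4 to 8 and the Atp5 genes. The symbols matched 85 rows, of which 83 had at least 10 counts over the 11 libraries and were taken as members, out of 17557 genes that passed the same minimum and 22609 in the table. The other two, Ndufs5 and Cox8c, had 0 counts in every library. By complex, the members were 34 genes of complex I, 4 of complex II, 8 of complex III, 19 of complex IV and 15 of complex V, and 3 rows (Cox4nb, Atp5s and Atp5sl) carry a matching older symbol but do not encode a subunit.

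Polyadenylated RNA was sequenced in bulk from tissue labelled cerebellar hemisphere, with 3 control, 3 NFKO (Pcp2-Cre;NfascFx/Fx), 2 AnkGKO (Pcp2-Cre;AnkGFx/Fx) and 3 DKO (Pcp2-Cre;NfascFx/Fx;AnkGFx/Fx) libraries. The controls carried floxed alleles and no Cre by the study's methods. By the study, Pcp2-Cre is expressed predominantly in Purkinje neurons. The share of cells in the sequenced tissue that lost either gene was not tested. The mice were untreated littermates on a mixed background, of both sexes by the methods, and sex-linked genes of the libraries are given below. They were of postnatal day 30 or 32 depending on the label field. The methods name 3 AnkGKO mice where 2 libraries were given.

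Oxidative phosphorylation couples the oxidation of nutrients to the synthesis of ATP in the inner mitochondrial membrane. Complex I accepts electrons from NADH and complex II from succinate, complex III passes them to cytochrome c and complex IV to oxygen, and the proton gradient built by complexes I, III and IV drives the rotary ATP synthase, complex V. Neurons depend heavily on this pathway, and Purkinje neurons, which fire continuously, are known for a high energy demand. The subunits that mitochondrial DNA encodes were not analysed here.

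Between 38890851 and 55822361 reads were counted on genes per library, and 3 counts, the floor used here, equalled 0.0546 to 0.0780 CPM (counts-per-million, scaled by the TMM method of edgeR). This floor covers counting error only. Ank3, which encodes AnkG, was at 353 to 375 CPM in control, 385 to 407 in NFKO, 156 and 200 in AnkGKO and 160 to 185 in DKO, whereas Nfasc was at 661 to 718 CPM in control and 622 to 701 in NFKO and did not pass the test there (log2 fold change -0.08, adjusted p = 0.969 in edgeR's quasi-likelihood test, adjusted by Benjamini-Hochberg over all genes). The libraries were not alike in tissue markers. The 5 tested Purkinje neuron genes summed to 932 CPM in control 1 and 1034 in NFKO 1 but 169 to 283 in the other 9 libraries, Pcp2 itself lay at 0.0929 to 0.374 CPM in 7 of them, and 5 caudal Hox genes summed to 265 to 401 CPM in all 11. Reads of both Xist and Y-linked genes were found in control 1 and DKO 1. All NFKO and AnkGKO libraries and control 3 had Xist at 0.344 to 1.39 CPM and the Y-linked Ddx3y at 89.6 to 103 CPM. Control 2, DKO 2 and DKO 3 had Xist at 459 to 598 CPM and Ddx3y at 0.109 to 0.342 CPM. Sex and genotype are thus partly confounded. The part of tissue and sex in the values below was tested only as far as stated beside them. Because the tissue was sequenced in bulk, fewer cells of a type and less RNA per cell cannot be told apart.

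The 5 genes of the set with the largest share of sequence that also occurs elsewhere in the genome had low or no counts. Processed pseudogenes, reverse-transcribed copies of spliced transcripts, are common for genes of this pathway. For each transcript the share of its 100-base words that recur unchanged at another place in GRCm39 was computed. Of the 85 rows, 72 had a share of 10% or less, 8 had more than 10 and up to 50%, and 5 had more than 50%. These 5 were Atp5g2 (87.5%), Cox7c (68.3%), Atp5g1 (65.3%), Ndufs5 (61.8%) and Atp5l (57.4%). Their mean level over the libraries ran from 0 to 4.32 CPM, against 7.92 to 67.8 CPM in the 8 with an intermediate share. The 72 with a low share ran from 0 to 1522 CPM (median 104). Reads that aligned to more than 1 place were listed apart from the genes and amounted to 56.9 to 61.0 per 100 counted reads. How many of them came from these genes was not tested.

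The start of the coding sequence, 180 bases from the start codon, is shown for 6 genes so that this shared sequence can be seen. Capitals mark bases that lie in a 50-base word found elsewhere in the genome. Ndufs5 and Cox7c encode small subunits of complexes I and IV. Atp5g1, Atp5g2 and Atp5g3 encode the same mature c subunit of the ATP synthase ring with different import sequences. Cox7a1, without any shared word, is shown because edgeR called it in 1 comparison below, DKO against NFKO.
Ndufs5: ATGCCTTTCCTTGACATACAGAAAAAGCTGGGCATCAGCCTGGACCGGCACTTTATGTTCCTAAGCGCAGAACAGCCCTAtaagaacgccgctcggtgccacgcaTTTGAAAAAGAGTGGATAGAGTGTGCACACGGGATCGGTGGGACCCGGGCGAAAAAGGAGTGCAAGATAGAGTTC
Cox7c: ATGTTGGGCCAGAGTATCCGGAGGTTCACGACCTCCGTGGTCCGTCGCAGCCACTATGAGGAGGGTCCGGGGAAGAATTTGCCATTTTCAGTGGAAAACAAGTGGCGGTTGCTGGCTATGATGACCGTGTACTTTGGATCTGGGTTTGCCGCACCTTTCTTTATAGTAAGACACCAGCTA
Atp5g1: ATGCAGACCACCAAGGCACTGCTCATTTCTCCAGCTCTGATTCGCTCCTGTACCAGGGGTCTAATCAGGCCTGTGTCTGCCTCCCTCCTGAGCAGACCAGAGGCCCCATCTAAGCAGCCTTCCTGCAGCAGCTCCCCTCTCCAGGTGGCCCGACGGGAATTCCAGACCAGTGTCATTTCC
Atp5g2: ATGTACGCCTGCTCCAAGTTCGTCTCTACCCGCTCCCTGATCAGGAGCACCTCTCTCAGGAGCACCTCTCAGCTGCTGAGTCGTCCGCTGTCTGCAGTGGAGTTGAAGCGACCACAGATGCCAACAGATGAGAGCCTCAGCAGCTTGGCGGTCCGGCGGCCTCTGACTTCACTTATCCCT
Atp5g3: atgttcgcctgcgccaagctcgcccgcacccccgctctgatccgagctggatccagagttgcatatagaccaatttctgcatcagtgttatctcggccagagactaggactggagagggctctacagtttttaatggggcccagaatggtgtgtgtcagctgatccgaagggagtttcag
Cox7a1: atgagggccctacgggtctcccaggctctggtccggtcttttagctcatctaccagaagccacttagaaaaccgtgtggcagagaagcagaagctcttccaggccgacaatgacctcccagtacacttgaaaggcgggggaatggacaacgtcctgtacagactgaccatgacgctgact

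The gene of Ndufs5 lies at chr4:123606481-123612002 on the minus strand of GRCm39, and its fullest copy is the processed pseudogene Ndufs5-ps at chr16:42775923-42776426, which holds 75.4% of the 50-base words of the transcript. Cox7c at chr13:86189246-86195023 on the minus strand has its fullest copy, Gm12338, at chr11:75490472-75490871 with 71.5% of the words. The copy of Atp5g2 (chr15:102571295-102580787, minus strand) is Gm10231 at chr17:5866325-5866976 with 88.4%, and that of Atp5g1 (chr11:95959678-95966757, minus strand) is Gm10039 at chr11:100252438-100252962 with 75.7%. Among the genes of the c subunit, Atp5g1 was at 4.26 ± 0.498 CPM in control (SD, n = 3), Atp5g2 at 0.186 ± 0.117 and Atp5g3, which shares no word with the rest of the genome, at 265 ± 2.28. For the members with a high share, the counted level covers only reads placed uniquely. How far it differs from the level of the transcript was not tested.

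**Figure D1:**
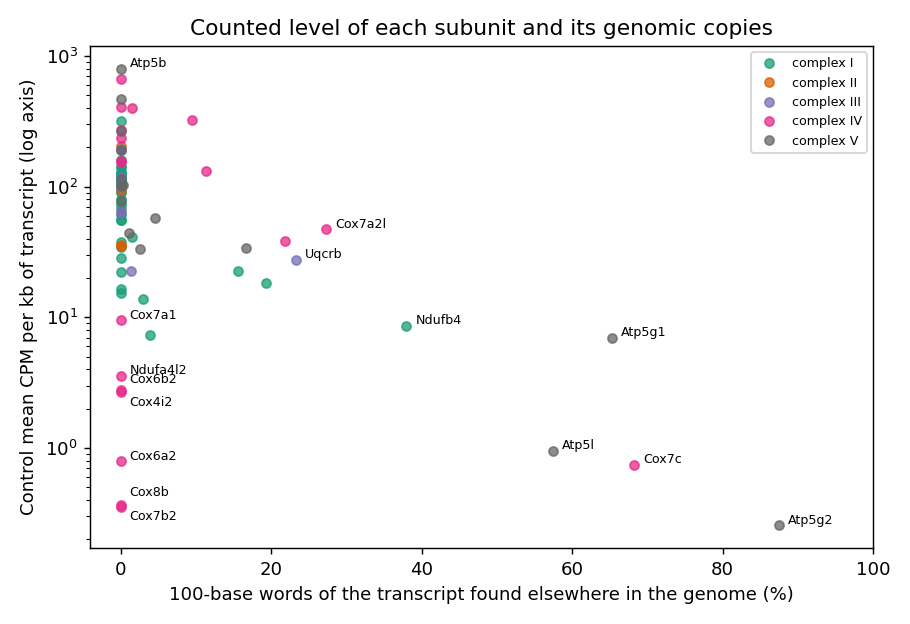
Mean control CPM per kb of transcript (log axis) of the 80 subunit genes with counts against the percent of 100-base words of the transcript found elsewhere in the genome, coloured by complex. Atp5g2, Cox7c, Atp5l and Atp5g1 lie at the right with 57.4 to 87.5% shared words and no more than 6.97 CPM per kb, while the low genes at the left include the tissue isoforms Cox6a2, Cox8b, Cox7b2, Cox4i2, Cox6b2 and Cox7a1 and the paralog Ndufa4l2.

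In control libraries, levels per kb of the canonical transcript differed widely within each complex. In complex V the highest was Atp5b, the catalytic beta subunit, with 800 CPM per kb, and the lowest was Atp5g2 with 0.255. In complex IV the highest was Cox4i1, a core regulatory subunit, with 671 CPM per kb, and the lowest was Cox7b2, an isoform known from testis, with 0.351. Complex III ran from 22.5 CPM per kb for Uqcr11, a small subunit, to 194 for Uqcrc1, a core protein, and complex I from 7.32 for Ndufs6, a subunit of the NADH-oxidizing arm, to 316 for Ndufb8, a subunit of the membrane arm. The canonical transcript of Ndufs6 is 3593 bases long with 348 coding bases and that of Uqcr11 2746 with 168, so their levels per kb depend on the transcript chosen. The 4 subunits of complex II, the succinate dehydrogenase of the citric acid cycle, were at 203 CPM per kb for the flavoprotein Sdha, 94.0 for the membrane anchor Sdhd, 36.1 for the anchor Sdhc and 35.3 for the iron-sulfur protein Sdhb. By CPM alone Sdhb (142) was above Sdhd (118) and Sdhc (116), so this order also depends on the transcripts chosen. The median was 77.7 CPM per kb in complex I, 65.1 in complex II, 82.3 in complex III, 47.0 in complex IV and 78.1 in complex V.

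The promoters of the members were searched for the binding words of 3 factors known to act on genes of this pathway. RefSeq promoters of build GRCm38.p6, from 250 bases before to 50 after the start, were found for 68 members and gave 74 sequences. The word GCGCATGCG of NRF1 was present on either strand in 8 of the 74 (10.8%) and in 1.75% of all 32851 promoters, CCGGAAGT of GABPA in 5 (6.76%, against 3.89%), and AAGATGGCG of YY1 in 9 (12.2%, against 1.40%). A promoter held at least 1 of the words in 21 of 74 cases (28.4%) and in 6.69% of all promoters. No word is contained in another, while the NRF1 word and its reverse complement can overlap each other. A stretch upstream of the start is shown for 1 gene each of complexes IV, III and V to let the words be seen in place, with the word in capitals (in Cox6a1 the word and its reverse complement overlap).
Cox6a1, NRF1, minus strand of GRCm38.p6 chr5:115349071-115349140: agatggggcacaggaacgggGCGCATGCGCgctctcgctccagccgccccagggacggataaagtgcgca
Uqcr11, GABPA, minus strand of GRCm38.p6 chr10:80406838-80406907: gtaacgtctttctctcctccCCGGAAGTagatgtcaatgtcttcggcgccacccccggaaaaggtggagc
Atp5j, YY1, minus strand of GRCm38.p6 chr16:84835015-84835084: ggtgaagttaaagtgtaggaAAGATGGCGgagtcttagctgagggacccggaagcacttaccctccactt

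Across the 11 libraries the members varied little. The 71 members with a mean of at least 10 CPM had a median coefficient of variation of 6.40%, against 7.78% for all 10239 genes at that level. The steadiest was Ndufs1, the largest subunit of complex I, which ran from 208 to 227 CPM (2.86%), and the least steady was Cox7b with 98.0 to 225 CPM (29.8%). The median log2 ratio of the 68 subunits at this level to their control mean was 0.05, -0.02 and -0.02 in the control libraries, 0.02, -0.11 and 0.09 in NFKO, -0.09 and -0.08 in AnkGKO, and -0.08, 0.07 and 0.02 in DKO. The subunits thus moved together within a library, and NFKO libraries 2 and 3 lay as far apart as any libraries of different genotype. All genes at this level had medians between -0.04 and 0.01 in the same libraries. Members with transcripts under 800 bases (22) and of 800 bases or more (49) had medians on the same side of 0 in every library but NFKO 1.

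**Figure D2:**
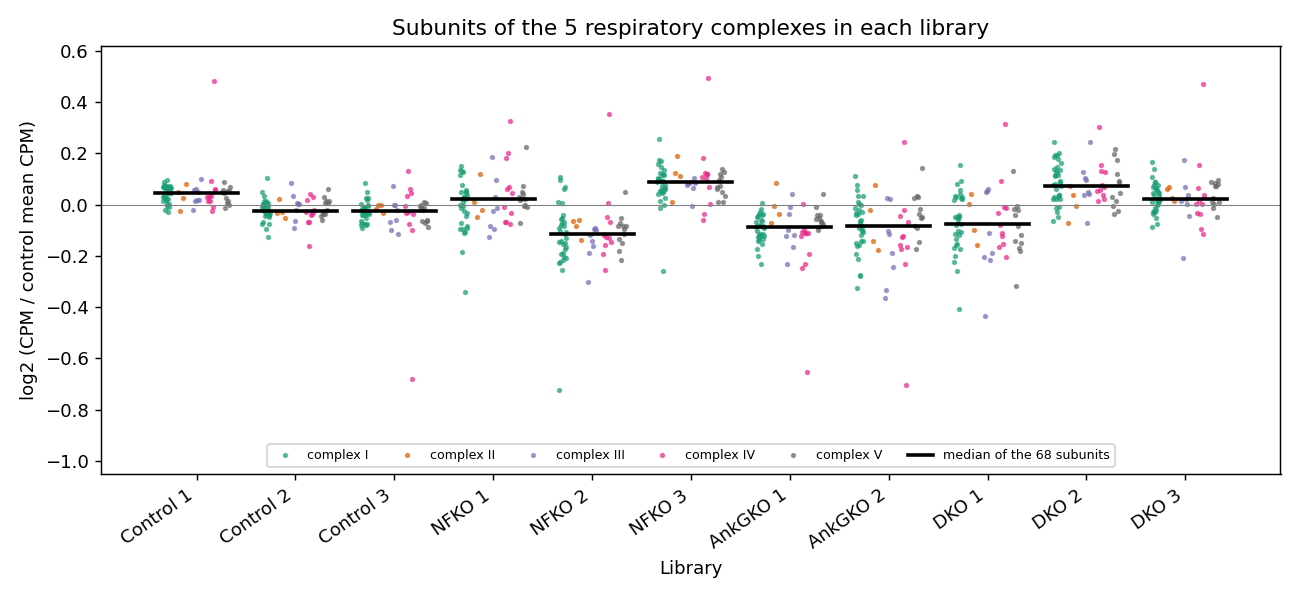
log2 ratio of CPM to the control mean in each library for the 68 subunits with a mean of at least 10 CPM, coloured by complex, with the median of the 68 as a black line. The medians run from -0.11 in NFKO 2 to 0.09 in NFKO 3, both AnkGKO libraries lie below 0, and the single far points are Cox7b (complex IV) in most libraries and Ndufa12 (complex I) in NFKO 2.

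Summed over the members of a complex, both AnkGKO libraries were below every control library in complexes I, II, III and IV, and in complex V AnkGKO overlapped with control, as NFKO and DKO did in every complex. Complex IV, the terminal oxidase, summed to 2063, 1908 and 1892 CPM in the control libraries, 2001, 1838 and 2100 in NFKO, 1758 and 1765 in AnkGKO, and 1913, 2058 and 2023 in DKO. The mean was 1761 CPM in AnkGKO and 1954 in control, a difference of -9.87%, and Cox7b, a member of it with large differences between libraries, is described below. The differences of AnkGKO from control were -6.60% for complex III, -5.82% for complex I, -2.79% for complex II and -2.70% for complex V. With 1 library left out these ran from -9.17 to -4.03%, -6.63 to -4.36%, -3.66 to -1.41% and -3.93 to -1.02%. Complex IV ran from -11.3 to -7.30%. In NFKO the differences lay between -2.19 and 1.31% and in DKO between 0.085 and 2.23%. With 1 library left out, complex I ran from -4.69 to 1.91% in NFKO and from -0.282 to 3.15% in DKO. In such fits the NFKO difference took both signs in every complex, and the DKO difference in complexes I, II and III. These sums are descriptions without a test. Single NFKO libraries were lower than AnkGKO in complexes I, II, III and V, with NFKO 2 at 2955 CPM for complex I against 3014 and 3032 in AnkGKO.

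NFKO was compared with control to ask whether the targeting of Nfasc by Pcp2-Cre goes with a change of the subunits. In edgeR's quasi-likelihood test, where a call needs a log2 fold change of 0.6 or more in size and an adjusted p under 0.05, 0 of 83 members were called, against 0.365% of all genes, and DESeq2 also called 0, against 0.945% of all genes. At an unadjusted p under 0.05 there were 2 members, 1 higher and 1 lower, against 7.69% of all genes. The median log2 fold change of the members was -0.01, with 44 of 83 below 0 against 51.6% of all genes. The median standard error of the 71 members with at least 10 CPM was 0.07. Libraries did not overlap in 3 members that were lower (all genes 6.51%) and 2 that were higher (all genes 7.42%).

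Ndufc2, a membrane subunit of complex I, had the smallest p. Its level was 87.4, 82.5 and 82.1 CPM in control, 66.3, 72.8 and 70.2 in NFKO, 75.4 and 80.6 in AnkGKO, and 81.8, 95.1 and 84.8 in DKO. All NFKO libraries were below all the others. The log2 fold change in NFKO was -0.27 ± 0.07 (standard error) with an adjusted p of 0.206, and DESeq2, which gave an adjusted p of 0.00923, left it short of the fold-change threshold. Against NFKO, DKO differed by 0.32 ± 0.07 (adjusted p = 0.0583). The interaction, which asks whether the effect of both knockouts departs from the sum of the single effects, was 0.43 ± 0.10 for this gene (adjusted p = 0.132).

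Ndufa6, a subunit of the matrix arm of complex I, was at 82.6, 85.7 and 82.6 CPM in control and at 91.6, 90.0 and 99.9 in NFKO. NFKO lay above control without overlap, with a log2 fold change of 0.17 ± 0.06 and an adjusted p of 0.492. The other members with the smallest p in this comparison were Ndufa5 (0.14, adjusted p = 0.773) and Atp5k (0.14, adjusted p = 0.804) above 0 and Ndufa7 (-0.13, adjusted p = 0.871) and Cox6a1 (-0.12, adjusted p = 0.887) below it. Ndufa5 and Ndufa7 belong to the peripheral arm of complex I, Atp5k to the membrane part of ATP synthase, and Cox6a1 is the widely expressed form of a complex IV subunit.

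AnkGKO was compared with control in the same way for loss of AnkG. By edgeR 0 of 83 members were called, against 0.165% of all genes, and DESeq2 called 1, Cox7b2, against 0.582% of all genes. At an unadjusted p under 0.05 there were 6 members, all lower, against 5.39% of all genes. The log2 fold change was below 0 in 73 of 83 members against 51.3% of all genes, with a median of -0.07 over the members and -0.01 over all genes. It was below 0 in 33 of 34 members of complex I (median -0.08), 3 of 4 of complex II (-0.06), 7 of 8 of complex III (-0.12), 17 of 19 of complex IV (-0.14) and 12 of 15 of complex V (-0.04). In 35 members both AnkGKO libraries were below all control libraries (all genes 12.3%), and in 1, Sdhc, above them (all genes 11.7%).

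The median log2 ratios of both AnkGKO libraries lay between those of NFKO 2 and NFKO 3. Both AnkGKO libraries had Xist under 1 CPM, as had control 3 alone among the controls. With the Xist level as a covariate, 53 of 83 members were below 0 and the median was -0.03, and over all 21 alternative fits 53 to 74 members were below 0. The members of the pathway move together within a library, so these counts are not counts of independent events.

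Ndufb9, a subunit of the distal membrane arm of complex I, had the smallest p in AnkGKO. It was at 150, 146 and 141 CPM in control, 135, 128 and 150 in NFKO, 124 and 120 in AnkGKO, and 141, 141 and 138 in DKO. Both AnkGKO libraries were below all the others. The log2 fold change was -0.25 ± 0.07 (adjusted p = 0.404), and DKO against AnkGKO differed by 0.20 ± 0.07 (adjusted p = 0.530). Over 21 alternative fits the log2 fold change in AnkGKO ran from -0.28 to -0.20. The lowest adjusted p among these fits was under 0.05, but the change stayed short of the fold-change threshold.

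Ndufa7 was at 50.2, 49.2 and 48.6 CPM in control and at 42.9 and 39.4 in AnkGKO, without overlap. Its log2 fold change was -0.26 ± 0.10 (adjusted p = 0.764). Ndufb8 (-0.19, adjusted p = 0.911) and Uqcr11 (-0.28, adjusted p = 0.902) were the other well-counted members at an unadjusted p under 0.05 apart from Cox7b. The members with the smallest p among those above 0 were Sdhc (0.08, adjusted p = 0.998), Atp5k (0.09, adjusted p = 0.998) and Atp5s (0.06, adjusted p = 0.998). Atp5s encodes coupling factor B, which is not counted among the subunits of ATP synthase. Of the exonic bases of Ndufb8, 68.6% overlap another annotated gene on the same strand.

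Cox7b2 was close to the floor. It was at 0.806, 0.584 and 0.809 CPM in control, 0.765, 0.809 and 0.929 in NFKO, 0.268 and 0.0434 in AnkGKO, and 0.187, 0.701 and 0.655 in DKO. AnkGKO 2 was below the floor of 3 counts, and DKO 1 was below both other DKO libraries. The fitted log2 fold change in AnkGKO was -2.20 ± 0.65, with an adjusted p of 0.459 by edgeR and 0.0361 by DESeq2. It was -1.44 without AnkGKO replicate 2 and -3.99 without AnkGKO replicate 1.

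**Figure D3:**
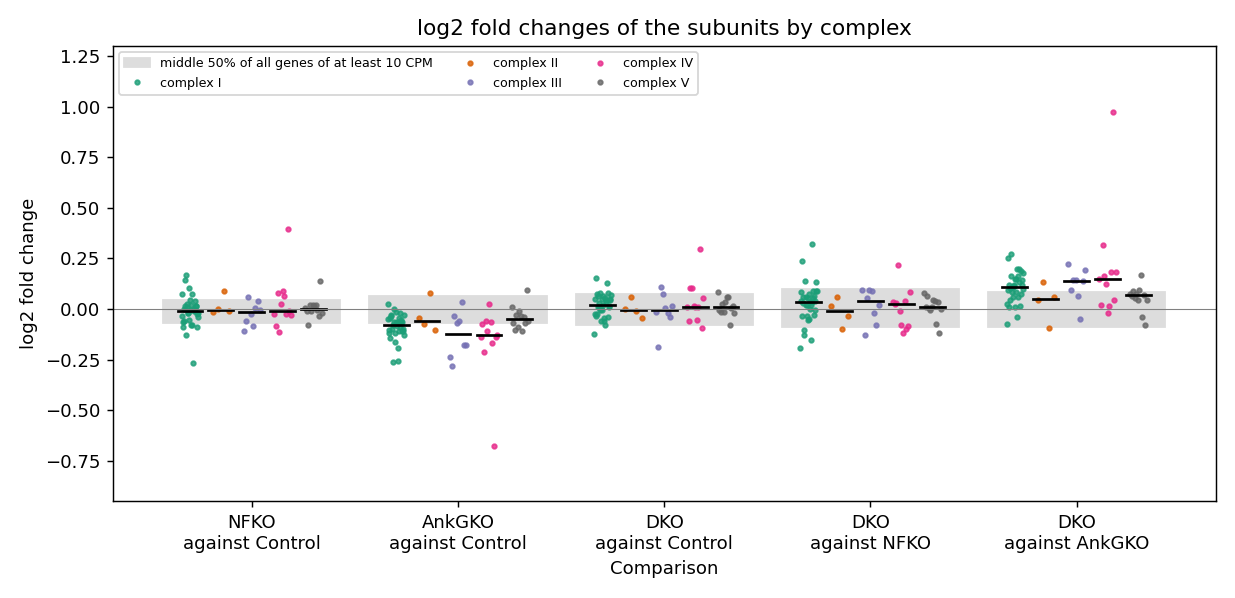
log2 fold change of the subunits with a mean of at least 10 CPM in the 5 comparisons, coloured by complex, with the median of each complex as a black line and the middle 50% of all genes at that level as a grey box. The medians lie near 0 for NFKO and DKO against control, from -0.13 to -0.05 for AnkGKO against control, and from 0.05 to 0.15 for DKO against AnkGKO.

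DKO was compared with control for loss of both proteins. By edgeR 0 of 83 members were called, against 0.0228% of all genes, and DESeq2 called 1, Cox7a1, against 0.284% of all genes. At an unadjusted p under 0.05 there were 2 members, 1 higher and 1 lower, against 7.77% of all genes. The median log2 fold change was 0.01, with 36 of 83 below 0 against 50.2% of all genes. Libraries did not overlap in 2 members that were lower, Atp5j and Cox7a1 (all genes 6.80%), and in 1 that was higher, Sdhb (all genes 7.65%). The median standard error was 0.07, and 67 of the 71 members with at least 10 CPM had an estimate within 10% of control in this comparison.

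Cox7a1 (chr7:29883569-29885503, plus strand of GRCm39) encodes the form of subunit VIIa found in heart and skeletal muscle and is a small structural subunit of complex IV. It was at 4.94, 3.93 and 3.64 CPM in control, 4.38, 5.82 and 4.91 in NFKO, 3.61 and 3.67 in AnkGKO, and 1.61, 2.83 and 2.51 in DKO. All DKO libraries were below all the others. The log2 fold change of DKO against control was -0.85 ± 0.21 (adjusted p = 0.513 by edgeR and 0.0199 by DESeq2).

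Against NFKO, DKO had 1 of 83 members called, Cox7a1, which fell, while 0.615% of all genes were called. Its log2 fold change was -1.12 ± 0.21 with an adjusted p of 0.0317 in edgeR's quasi-likelihood test (Benjamini-Hochberg). The direction held in all 21 alternative fits, with log2 fold changes from -1.50 to -0.92, but the call was lost in 12 of them. Among the fits that left out 1 library, the adjusted p was 0.0516 without control replicate 2, 0.0562 without NFKO replicate 1, 0.132 without NFKO replicate 2, 0.0538 without NFKO replicate 3, 0.0657 without DKO replicate 1 and 0.0794 without DKO replicate 3. Over all 21 it ran from 1.9e-05, by DESeq2, to 0.132. Of the exonic bases of Cox7a1, 22.7% overlap an annotated transcript on the other strand. DESeq2 called the same 1 member, against 2.53% of all genes.

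Most markers of muscle and vessel walls had estimates below 0 in DKO against NFKO, the comparison in which edgeR called Cox7a1. All 6 genes of slow muscle and heart were below 0 in DKO against NFKO (median log2 fold change -1.23) and 3 of 6 in DKO against control (-0.13), with none called in either. Their sum was 5.54 to 8.07 CPM in control, 5.87, 24.1 and 5.96 in NFKO, 13.4 and 10.2 in AnkGKO and 5.81 to 7.55 in DKO. In AnkGKO 8.32 and 7.73 CPM of these sums came from Tnni1, the troponin I of slow muscle. Myh6, the myosin of heart atria, was at 0.988, 2.25 and 1.79 CPM in control and at 0.140, 0.911 and 0.0546 in DKO, below every control library. Myh7 of the same list was at 2.91, 3.02 and 3.00 CPM in control and at 5.62, 2.29 and 5.86 in DKO. The 10 skeletal muscle genes had 9 below 0 in DKO against NFKO and 0 in DKO against control. Of the 7 genes of smooth muscle and pericytes, 6 were below 0 in DKO against NFKO (median -0.53) and 7 in DKO against control (-0.26), with none called in either. Their sum was 130 to 209 CPM in control, 158 to 285 in NFKO, 176 and 177 in AnkGKO and 116 to 134 in DKO. Rgs5, a pericyte gene, was at 28.1, 35.3 and 33.0 CPM in DKO, below all other libraries, and was called in DKO against AnkGKO (-0.86 ± 0.11, adjusted p = 0.00805). Tnni1 was called in AnkGKO against control (3.29 ± 0.45, adjusted p = 0.0137), where 5 of the 6 genes of slow muscle and heart were below 0 (median -0.69). The part of these cell types in the level of Cox7a1 was not tested.

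The widely expressed partner of Cox7a1 did not share its pattern. Cox7a2 was at 123, 121 and 130 CPM in control, 131, 125 and 136 in NFKO, 115 and 123 in AnkGKO, and 112, 132 and 117 in DKO, with a log2 fold change of DKO against NFKO of -0.12 ± 0.07 (adjusted p = 0.420). DKO overlapped with every other genotype, and both AnkGKO libraries were below all NFKO libraries. Cox7a2l, which encodes a related factor that joins complexes III and IV, had 0.04 ± 0.07 (adjusted p = 0.839) in that comparison.

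**Figure D4:**
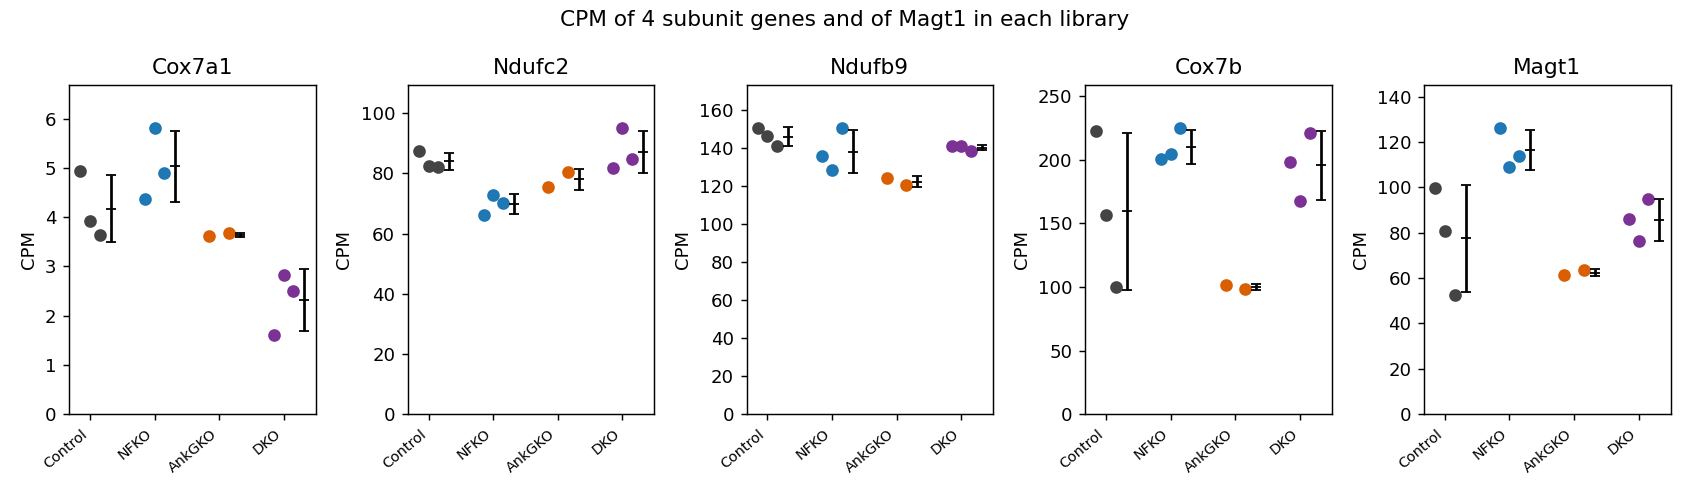
CPM of Cox7a1, Ndufc2, Ndufb9 and Cox7b and of Magt1, the gene next to Cox7b, in each library by genotype, with the mean and SD at the right of each group. Cox7a1 is lowest in DKO (1.61 to 2.83 CPM), Ndufc2 in NFKO (66.3 to 72.8) and Ndufb9 in AnkGKO (120 and 124), while Cox7b and Magt1 spread over a wide range within control.

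In DKO against NFKO 6 members had an unadjusted p under 0.05, 3 higher and 3 lower, against 16.2% of all genes. Besides Cox7a1 and Ndufc2 they were Cox4nb (0.23, adjusted p = 0.235) and Cox6a1 (0.22, adjusted p = 0.227) above 0 and Cox6b2 (-0.75, adjusted p = 0.242) and Ndufa1 (-0.19, adjusted p = 0.184) below. Cox4nb encodes a subunit of the membrane protein insertion complex of the endoplasmic reticulum. It was at 132, 101 and 109 CPM in DKO and 91.8 to 103 in the other libraries, so DKO 1 alone stood well above. Against control its log2 fold change in DKO was 0.19 ± 0.09 (adjusted p = 0.639).

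The other members with the smallest p in DKO against control were Ndufs3 (0.13, adjusted p = 0.682), a core subunit of complex I, and Atp5a1 (0.08, adjusted p = 0.727), the alpha subunit of ATP synthase, above 0, and Ndufa1 (-0.12, adjusted p = 0.661), a membrane subunit of complex I, and Uqcr11 (-0.19, adjusted p = 0.671) below it. Uqcr11 was at 64.4, 63.4 and 57.7 CPM in control and at 45.7, 63.5 and 53.6 in DKO. DKO 1 was the lowest and DKO 2 lay among the control libraries.

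DKO against AnkGKO, which shares the AnkGKO libraries with the comparison above, had 0 of 83 members called by edgeR and by DESeq2, against 0.171% of all genes by edgeR and 0.6% by DESeq2. At an unadjusted p under 0.05 there were 11 members, 10 higher and 1 lower, against 8.48% of all genes. The log2 fold change was above 0 in 71 of 83 members against 50.7% of all genes, with a median of 0.10. All DKO libraries were above both AnkGKO libraries in 29 members (all genes 12.4%). With Xist as a covariate 49 of 83 were above 0.

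The interaction of the knockouts had 0 of 83 members called by edgeR and by DESeq2, against 0.530% of all genes by edgeR and 1.89% by DESeq2. At an unadjusted p under 0.05 there were 7 members against 10.3% of all genes, with Ndufc2, Ndufa7 (0.40 ± 0.13, adjusted p = 0.303), Cox7a1 (-0.92 ± 0.31, adjusted p = 0.311), Ndufb9, Ndufv1, Ndufv2 and Cox6a1. The test for any difference among the 4 genotypes called 0 of 83 members by edgeR, against 0.723% of all genes, with 6 at an unadjusted p under 0.05, against 11.3% of all genes. DESeq2 called 6 of 83 members in it, against 6.76% of all genes, a share near that of the members. They were Cox7a1, Cox7b, Cox7b2, Ndufa6, Ndufb9 and Ndufc2.

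Cox7b, a small subunit of complex IV encoded at chrX:105055638-105066240 (plus strand of GRCm39), had the largest spread of the well-counted members. It was at 223, 156 and 99.7 CPM in control, 201, 204 and 225 in NFKO, 102 and 98.0 in AnkGKO, and 199, 167 and 222 in DKO. Control 3 and both AnkGKO libraries were low and the other 8 libraries were high. Its log2 fold change was -0.68 ± 0.28 in AnkGKO (adjusted p = 0.872), 0.40 ± 0.24 in NFKO (adjusted p = 0.837) and 0.30 ± 0.24 in DKO (adjusted p = 0.764). In the test among the 4 genotypes it was called by DESeq2, and by edgeR only without control replicate 3.

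The low Cox7b libraries were among those without Xist. Xist was at 464, 598 and 0.428 CPM in control, 0.344, 0.655 and 1.39 in NFKO, 0.598 and 0.413 in AnkGKO, and 28.4, 459 and 469 in DKO. All 3 NFKO libraries had little Xist and high Cox7b, so the levels of Xist and Cox7b did not go together there. Ndufa1 and Ndufb11, the other 2 members on the X chromosome, ran from 39.4 to 49.9 and from 53.6 to 66.1 CPM without such a split.

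Magt1, the neighbouring gene upstream of Cox7b (chrX:105011690-105055528), was looked at after the values of Cox7b had been seen. It was at 99.7, 80.6 and 52.7 CPM in control, 126, 109 and 114 in NFKO, 61.3 and 63.5 in AnkGKO, and 86.3, 76.2 and 94.8 in DKO. The same 3 libraries were the lowest for both genes. None of the tests of Magt1 between genotypes passed (adjusted p from 0.297 to 0.998 in the 5 comparisons).

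Complex IV has several subunits with a common form and a form known from muscle, heart, lung or testis, and the common form prevailed wherever a pair was measured. In control, Cox4i1 was at 525 ± 11.1 CPM (SD, n = 3) and Cox4i2, the form known from lung, at 2.03 ± 0.226. Cox6a1 was at 228 ± 22.8 CPM and the muscle form Cox6a2 at 0.536 ± 0.198. Cox6b1 was at 178 ± 10.3 CPM and Cox6b2, known from testis, at 1.66 ± 0.472. Cox8a was at 184 ± 10.6 CPM, Cox8b, the form of muscle and brown fat, at 0.789 ± 0.171, and Cox8c had 0 counts. Ndufa4, a subunit now assigned to complex IV, was at 216 ± 7.77 CPM and its paralog Ndufa4l2 at 3.45 ± 0.396. Per kb the order was the same in each of these pairs.

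The muscle forms Cox6a2 and Cox8b were highest in the libraries with the most skeletal muscle RNA. The 10 skeletal muscle genes (Acta1 and Ckm among them) summed to 34.2, 68.8 and 32.4 CPM in control, 79.7, 415 and 3.96 in NFKO, 4.31 and 3.52 in AnkGKO, and 4.25, 192 and 5.06 in DKO. Cox6a2 was at 0.416, 0.765 and 0.428 CPM in control, 0.402, 4.31 and 0.0372 in NFKO, 0.0825 and 0.0652 in AnkGKO, and 0.303, 1.94 and 0.127 in DKO. NFKO 2 and DKO 2 were the highest for the muscle sum and for Cox6a2 alike.

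Cox8b was at 0.962, 0.785 and 0.619 CPM in control, 0.823, 2.62 and 0.929 in NFKO, 0.495 and 0.413 in AnkGKO, and 0.280, 1.54 and 0.546 in DKO. NFKO 2 and DKO 2 were again the highest. The log2 fold changes of Cox8b against control were 0.88 ± 0.59 in NFKO (adjusted p = 0.862) and -0.79 ± 0.70 in AnkGKO (adjusted p = 0.998), and the mean in DKO, 0.789 CPM, was that of control. Of its exonic bases 57.3% overlap Psmd13 on the other strand. Cox7a1 had its highest value in NFKO 2 and the highest of DKO in DKO 2, and without both libraries its log2 fold change of DKO against NFKO was -1.16 (adjusted p = 0.0716). The part of muscle RNA in these values was not tested beyond this.

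**Figure D5:**
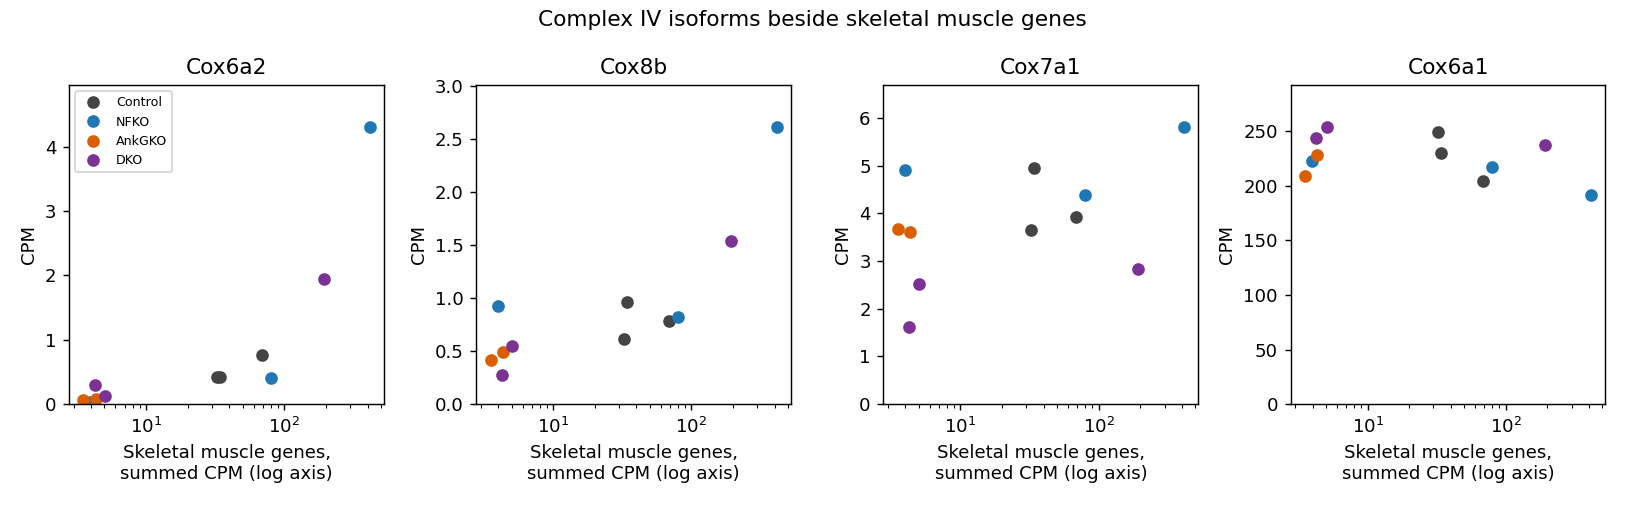
CPM of Cox6a2, Cox8b, Cox7a1 and Cox6a1 in each library against the summed CPM of 10 skeletal muscle genes (log axis), coloured by genotype. Cox6a2 and Cox8b are highest in NFKO 2 and DKO 2, the libraries with muscle sums of 415 and 192 CPM, Cox7a1 in DKO stays at or below 2.83 CPM, and Cox6a1 shows no such order.

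The assembly of the complexes depends on further genes, of which 1 passed the test in a comparison between genotypes and 1 more in the test among the 4 genotypes. Of 10 tested assembly genes of complexes II and III, 1 was called in NFKO against control (all genes 0.365%). This was Lyrm7, which helps to insert the iron-sulfur protein into complex III. It was at 3.67, 3.46 and 3.38 CPM in control, 17.0, 15.5 and 16.4 in NFKO, 4.48 and 3.69 in AnkGKO, and 4.88, 3.39 and 4.08 in DKO. NFKO was above all other libraries, with a log2 fold change against control of 2.22 ± 0.14 (adjusted p = 1.98e-05). Lyrm7 was also called by edgeR in DKO against NFKO (-1.99 ± 0.14, adjusted p = 5.92e-05, all genes 0.615%). In the interaction it was called as well (-2.21 ± 0.21, adjusted p = 0.000488, all genes 0.530%). The subunits of complex III, including the iron-sulfur protein gene Uqcrfs1 (148, 144 and 137 CPM in control, 146, 134 and 150 in NFKO), overlapped between these groups.

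Atpaf2, which helps to assemble the catalytic part of ATP synthase, was at 27.3, 27.0 and 27.0 CPM in control, 20.2, 17.6 and 22.2 in NFKO, 26.6 and 29.0 in AnkGKO, and 27.3, 28.3 and 29.6 in DKO. NFKO was below all other libraries. Atpaf2 was called in the test among the 4 genotypes (adjusted p = 0.0473 by edgeR, all genes 0.723%) and in no single comparison. None of the 16 tested assembly genes of complex I, the 23 of complex IV, the 18 of the citric acid cycle, the 17 regulators of mitochondrial biogenesis and the 11 antioxidant genes was called by edgeR in any comparison. Between 0.0228 and 0.723% of all genes were called, depending on the comparison. The 7 tested nuclear genes of the chain with other names, Cyc1 and Cycs among them, had 0 calls as well, with 6 of 7 below 0 in AnkGKO.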

How the data were processed

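Bulk RNA-seq of 11 libraries was used. Libraries were poly(A)-selected and strand-specific per the labels. The authors deposited whole-number read counts per gene, and their processing notes name FastQC 0.12.1, Trimmomatic 0.39, STAR 2.7.11a, R 4.3.2, DESeq2 1.40.2 and build GRCm39. The strand setting of the counting was not given in the sources used here. A deposited table of normalized values was not used. The 5 summary lines of the count table, which name no gene, were left out of totals and tests.

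Genes with at least 10 counts in total were fitted in R 4.3.3 with edgeR 4.0.16 (TMM, quasi-likelihood F-test, all 4 genotypes in 1 model), and p-values were adjusted by Benjamini-Hochberg over all genes tested. A call needed a log2 fold change of 0.6 or more in size and an adjusted p under 0.05. DESeq2 1.42.0, other scalings and filters, an Xist covariate, a replicate block and leaving out libraries were the alternatives. The procedure was tested on simulated counts of DKO against control, with changes larger than those of most members. Small differences and the AnkGKO group were not covered by this simulation. Transcripts and copies were read from GRCm39 with its GENCODE annotation, and 85 symbols matched it, 18 of them as older synonyms.

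The members and lists were chosen with earlier results of these data known. Named members were those called, up to 3 in each direction with the smallest p per comparison with control, tissue isoforms with their partners, the highest and lowest per kb of each complex, and the Sdh genes. Others that are named were chosen after their values were seen. Control and NFKO libraries of the same replicate number deviated together over 13910 genes (Pearson's r across genes 0.57, 0.47 and 0.26), although the labels do not say what the number stands for, and the block changed no call of a member between them. Nothing in the labels says how the libraries of a group relate beyond being separate samples, so p-values measure the spread between these samples.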

Additional observations from a re-analysis of the deposited data

How the results depend on the processing

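Of 420 log2 fold changes of named members under alternatives, 406 kept their direction and their side of the threshold, 12 (all Cox7a1 in DKO against NFKO) lost the call, 2 gained it under DESeq2 and 0 reversed. DESeq2 called 1 member in AnkGKO against control, 1 in DKO against control and 6 in the test among the 4 genotypes. In DKO against NFKO, 0 members were called with only the libraries compared (adjusted p of Cox7a1 0.0899), with the replicate block (0.0537), with Xist as a covariate (0.112), and, in alternatives chosen after seeing the data, without the 2 libraries highest in skeletal muscle genes (0.0716), the 2 highest in granule cell genes (0.0657) or the 2 with both Xist and Y-linked genes (0.0631). Leaving out 1 library gave 0 to 1 members there and 0 to 1 in the test among the 4 genotypes. The cause was not tested. The replicate block changed no other call. Outside Control and NFKO, same-numbered libraries correlated at -0.47 to 0.45, so these numbers were not taken as pairs. The number of members below 0 ran from 19 to 62 in NFKO, from 53 to 74 in AnkGKO and from 17 to 54 in DKO against control, and the median turned direction in NFKO and DKO. With 2 AnkGKO libraries and standard errors near 0.08, changes of a few percent in single members were not detectable at this depth of replication.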
